A study of Mus musculus with 11 samples.

Results

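*Cyp2a4*, *Cyp2a5*, *Cyp2a12*, *Cyp2a22*, *Cyp2b9*, *Cyp2b10* and *Cyp2b13* are 7 of the 54232 genes in the count files and belong to the Cyp2a and Cyp2b subfamilies of cytochrome P450 genes. They were chosen by name with the diet response of these subfamilies in the same libraries already known, so every diet value of a member is a description with no test. Cytochrome P450 enzymes of the liver sit in the membrane of the endoplasmic reticulum, hold a haem group and add oxygen to drugs, toxins, steroids and fatty acids, with electrons handed on by a reductase. In hepatocytes, Cyp2b genes are best known as targets of CAR and PXR, nuclear receptors that respond to foreign compounds. Several Cyp2a and Cyp2b genes are also known for higher expression in female than in male mouse liver, under the sex-specific rhythm of growth hormone and its effector STAT5.

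XBP1 is a transcription factor of the unfolded protein response, which widens the folding capacity of the endoplasmic reticulum where these enzymes reside. The study asked how its loss changes hepatocytes under a diet that brings on steatohepatitis. RNA from isolated, Percoll-purified hepatocytes of adult male C57BL/6 mice was sequenced as single-end reads of 50 bases in 11 libraries. *Xbp1* LKO mice lack functional *Xbp1* where Cre is driven by the albumin promoter, and *Xbp1* fl/fl mice carry the floxed gene as controls. They ate standard chow with water, or the high fat sugar (HFS) diet, which is a Western diet plus drinking water with fructose and glucose, for up to 6 weeks. There were 3 *Xbp1* fl/fl chow libraries, 2 *Xbp1* LKO chow libraries, 3 *Xbp1* fl/fl HFS libraries and 3 *Xbp1* LKO HFS libraries. Each HFS library pooled 2 animals, while the labels state no pooling on chow, so the spread on the HFS diet is that of pools. The Cre acts in hepatocytes and leaves other liver cells with the gene, and all animals were male.

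The deposited values were whole-number counts per gene. Total counts were 19515273, 19710725 and 21917294 in *Xbp1* fl/fl chow libraries, 21572701 and 19191032 in *Xbp1* LKO chow libraries, 22405363, 21501344 and 22573249 in *Xbp1* fl/fl HFS libraries, and 23423149, 23888401 and 23232834 in *Xbp1* LKO HFS libraries. Levels below are CPM, counts scaled to a common library size, after normalization by the trimmed mean of M values (TMM), which sets the bulk of the genes level between libraries. Differences between groups are log2 fold changes with their standard errors (SE) from edgeR's quasi-likelihood model of the 4 groups, fitted to all 11 libraries and to the 13303 genes that passed its filter on low counts. The model estimates the spread of a gene over all 4 groups together. The SE and p of a chow comparison thus also draw on the HFS pools, and those of an HFS comparison on the chow libraries. A gene is called different where its p, adjusted by Benjamini and Hochberg's method over all 13303 genes, is under 0.05.

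*Xbp1* (ENSMUSG00000020484) read 194, 200.3 and 221 CPM on chow and 301, 295 and 242 CPM on the HFS diet in *Xbp1* fl/fl libraries, against 95.7 and 128 CPM on chow and 117, 97.3 and 135 CPM on the HFS diet in *Xbp1* LKO libraries. All 5 *Xbp1* LKO libraries lay below all 6 *Xbp1* fl/fl libraries. The whole-gene level was lower in *Xbp1* LKO mice by a log2 fold change of -0.87 on chow (SE 0.18, adjusted p = 0.0183) and -1.26 on the HFS diet (SE 0.16, adjusted p = 0.00254; the quasi-likelihood test of edgeR, Benjamini-Hochberg adjusted). Counts per gene do not show the deleted exon apart from the transcript that remains. The chow call was lost without *Xbp1* LKO chow library 1 (-0.68, adjusted p = 0.0919) or library 2 (-1.10, adjusted p = 0.0588), and also with library totals (-0.54, adjusted p = 0.0631), in a fit of only the groups compared (-0.88, adjusted p = 0.0619) and with the replicate block (-0.85, adjusted p = 0.0541). The HFS call held with any library left out.

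All 7 genes lie on chromosome 7 of GRCm38 within 1139756 bases that hold 30 annotated genes, 15 of them protein-coding. *Cyp2b10* (ENSMUSG00000030483, 25897620 to 25926624), *Cyp2b13* (ENSMUSG00000040583, 26061497 to 26096197) and *Cyp2b9* (ENSMUSG00000040660, 26173411 to 26210661) come first, on the plus strand. *Cyp2a4* (ENSMUSG00000074254, 26307169 to 26315088) and *Cyp2a5* (ENSMUSG00000005547, 26835305 to 26843548) follow on the plus strand. *Cyp2a22* (ENSMUSG00000091867, 26931631 to 26939384) is the only member on the minus strand, and *Cyp2a12* (ENSMUSG00000060407, 27029081 to 27037375) closes the group on the plus strand. The Cyp2a genes are thus not contiguous, since *Cyp2b23*, *Cyp2b19* and *Cyp2g1* sit between *Cyp2a4* and *Cyp2a5*.

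**Figure D1:**
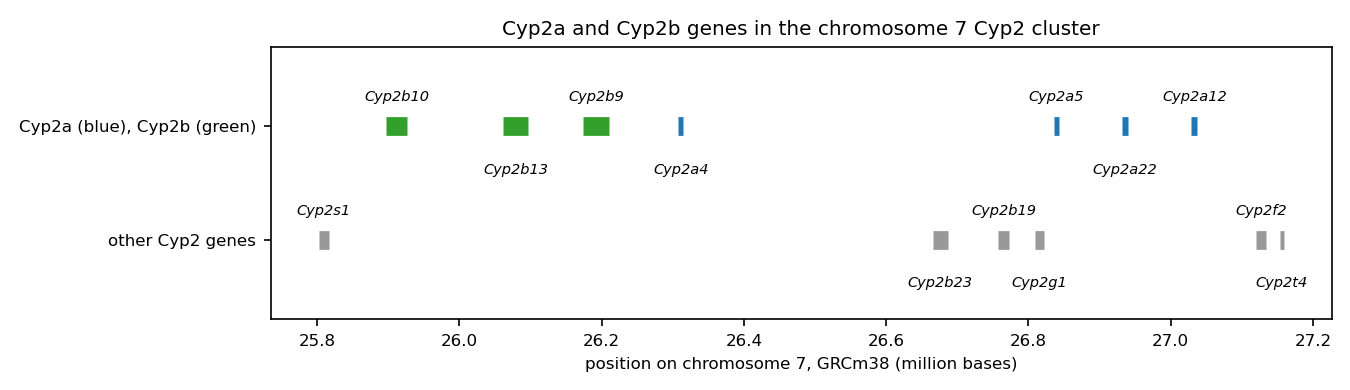
Position of the 7 members (upper line, Cyp2a in blue and Cyp2b in green) and of other Cyp2 genes nearby (lower line, grey) on chromosome 7 of GRCm38, with the axis in Mb; bar widths are gene lengths. The members run from *Cyp2b10* at 25897620 to *Cyp2a12* at 27037375, and *Cyp2a4* lies apart from the other 3 Cyp2a genes.

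Divided by exon length, which is that of all annotated exons of a gene together, the members covered a wide range of levels. This length was 3457 bases for *Cyp2a12* and 3445 for *Cyp2a22*. Their transcripts with the longest coding region have only 1681 and 1796 bases, while for the other members the lengths lay closer. Per base of that transcript *Cyp2a12* and *Cyp2a22* would stand higher beside the other members. The *Xbp1* fl/fl chow libraries had 484.6 ± 213 CPM per kilobase of exon (mean ± SD, n = 3) for *Cyp2a5* and 191 ± 53.3 for *Cyp2a12*. In those libraries *Cyp2b10* stood at 1.89 ± 0.884 CPM per kilobase, *Cyp2a4* at 0.321 ± 0.228, *Cyp2a22* at 0.234 ± 0.174, *Cyp2b9* at 0.138 ± 0.120 and *Cyp2b13* at 0.0205 ± 0.0356. *Cyp2a5* and *Cyp2a12* thus made up nearly all of the summed signal, and the level per kilobase of *Cyp2a4*, *Cyp2a22* and *Cyp2b9* did not differ beyond their spread.

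The order per kilobase changed with the group, though the place of *Cyp2a22* in it can depend on the length used as divisor. In *Xbp1* LKO chow libraries (n = 2) the levels after *Cyp2a5* (603.8 ± 236 CPM per kilobase) and *Cyp2a12* (125 ± 2.21) were *Cyp2b10* at 2.12 ± 0.831, *Cyp2b9* at 1.83 ± 0.376, *Cyp2a22* at 1.24 ± 0.227, *Cyp2a4* at 0.535 ± 0.0617 and *Cyp2b13* at 0.0810 ± 0.0502. *Xbp1* fl/fl HFS libraries (n = 3) had *Cyp2a5* at 525 ± 58.4 CPM per kilobase, *Cyp2a12* at 232 ± 48.6, *Cyp2b10* at 8.01 ± 4.0, *Cyp2b9* at 6.21 ± 4.83, *Cyp2a4* at 0.716 ± 0.114, *Cyp2a22* at 0.616 ± 0.397 and *Cyp2b13* at 0.138 ± 0.105. In both groups *Cyp2b10* and *Cyp2b9* did not differ from each other beyond their spread. In *Xbp1* LKO HFS libraries (n = 3), *Cyp2a5* had 673 ± 75.9 CPM per kilobase, *Cyp2a12* 187 ± 39.0, *Cyp2a4* 8.74 ± 2.70, *Cyp2b9* 5.54 ± 2.12, *Cyp2a22* 1.97 ± 1.76, *Cyp2b10* 1.18 ± 0.793 and *Cyp2b13* 0.139 ± 0.0502. *Cyp2a4* thus moved from among the lowest members to the third place per kilobase and *Cyp2b10* fell to the sixth, while the ranges of neighbours from *Cyp2a4* through *Cyp2b10* in that order overlapped.

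*Cyp2a4* encodes a steroid hydroxylase known for acting on the 15-alpha position of testosterone and for its predominance in female liver. Its level was 0.110, 0.867 and 0.697 CPM in *Xbp1* fl/fl chow libraries, 0.853 and 1.00 CPM in *Xbp1* LKO chow libraries, 1.10, 1.17 and 1.47 CPM in *Xbp1* fl/fl HFS libraries, and 18.8, 16.8 and 9.89 CPM in *Xbp1* LKO HFS libraries. Every *Xbp1* LKO HFS library stood above the other 8 libraries, whose values ran from 0.110 to 1.47 CPM. These levels rest on 2 to 30 counts in the 8 lower libraries and on 462, 453 and 258 counts in the 3 higher ones. On the HFS diet *Cyp2a4* was higher in *Xbp1* LKO than in *Xbp1* fl/fl libraries by a log2 fold change of 3.60 (SE 0.40, 12.1-fold, adjusted p = 0.00163; the quasi-likelihood test of edgeR, Benjamini-Hochberg adjusted), in 3 of 3 libraries. The call held with any library left out, with log2 fold changes of 3.42 to 3.83 and adjusted p of 0.000613 to 0.0104. On chow the genotype difference was 0.73 (SE 0.54, adjusted p = 0.508), and the groups overlapped. It was 0.25 without *Xbp1* fl/fl chow library 1 and 1.15 without *Xbp1* fl/fl chow library 2.

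The diet difference of *Cyp2a4*, which uses the same HFS libraries, was a log2 fold change of 1.15 (SE 0.48) in *Xbp1* fl/fl mice and 4.02 (SE 0.48) in *Xbp1* LKO mice. The first was 0.67 without *Xbp1* fl/fl chow library 1. Neither pair of groups overlapped, with all 3 HFS libraries above the chow libraries in each genotype. The difference between those diet effects was 2.87 with an SE of 0.68. Among the counts of *Cyp2a4* and *Cyp2a5* together, *Cyp2a4* had a share of 0.0493% ± 0.0256 (mean ± SD) in *Xbp1* fl/fl chow, 0.0821% ± 0.0405 in *Xbp1* LKO chow, 0.114% ± 0.00550 in *Xbp1* fl/fl HFS and 1.08% ± 0.334 in *Xbp1* LKO HFS libraries. The lowest share in an *Xbp1* LKO HFS library, 0.753%, was above the highest in any other library, 0.120%.

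**Figure D2:**
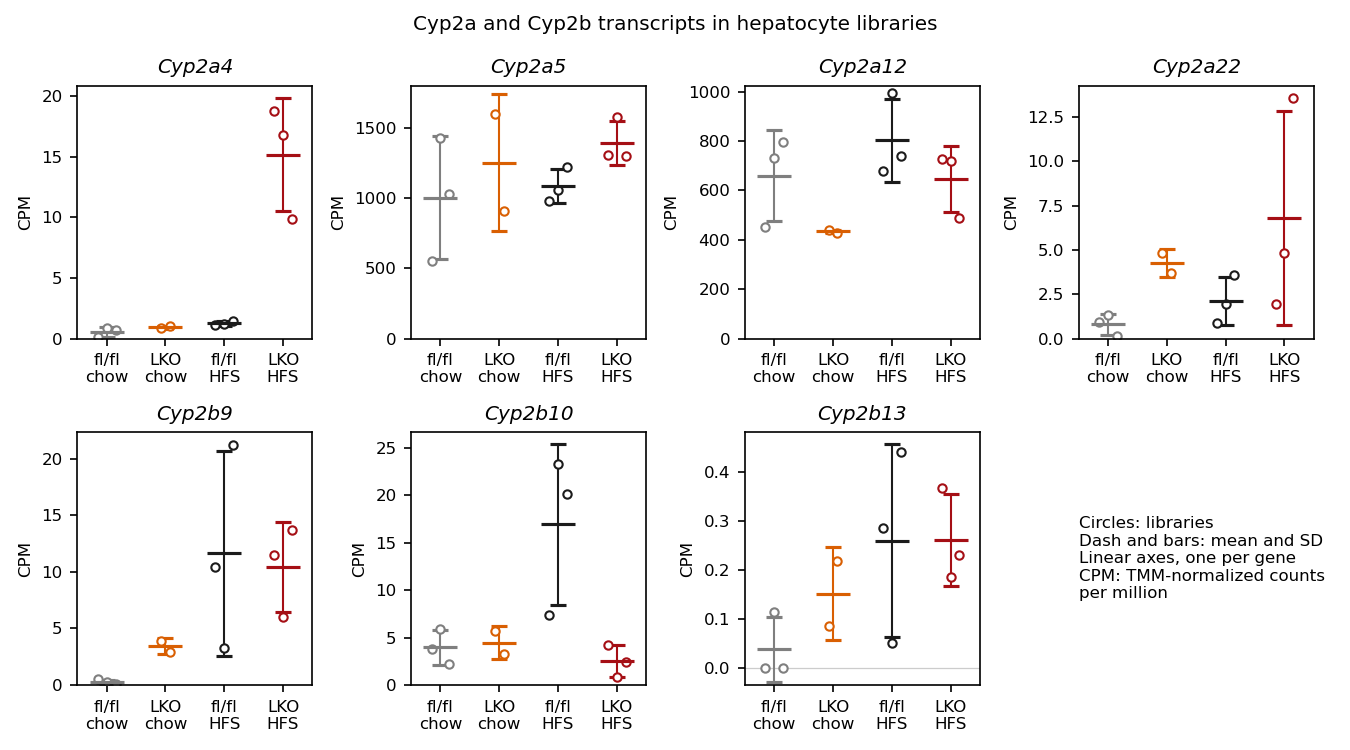
TMM-normalized CPM of the 7 genes in each library (circles) by genotype (fl/fl or LKO) and diet, with the group mean (dash) and SD (bars), each gene on its own linear axis. *Cyp2a4* is highest in the 3 *Xbp1* LKO HFS libraries (9.89 to 18.8 CPM), *Cyp2b9* is lowest in the 3 *Xbp1* fl/fl chow libraries (0.0498 to 0.496 CPM), and *Cyp2b10* is highest in the 3 *Xbp1* fl/fl HFS libraries (7.34 to 23.3 CPM).

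*Cyp2a5* encodes the coumarin 7-hydroxylase of mouse liver, which also acts on nicotine and bilirubin. It read 550.3, 1431 and 1033 CPM in *Xbp1* fl/fl chow libraries, 1597 and 906 CPM in *Xbp1* LKO chow libraries, 983, 1061 and 1219.9 CPM in *Xbp1* fl/fl HFS libraries, and 1306, 1577 and 1303 CPM in *Xbp1* LKO HFS libraries. The lowest and the highest library were both on chow, and chow libraries of the same genotype lay far apart. *Xbp1* LKO HFS libraries were all above *Xbp1* fl/fl HFS libraries, by a log2 fold change of 0.36 (SE 0.30, adjusted p = 0.615) that was not called. On chow the genotype groups overlapped, with a log2 fold change of 0.32 (SE 0.33, adjusted p = 0.666) that turned to -0.15 without *Xbp1* LKO chow library 1. Without *Xbp1* fl/fl chow library 1 or 2 or *Xbp1* LKO chow library 2 it was 0.022, 0.66 and 0.67. The diet differences were 0.11 (SE 0.30) in *Xbp1* fl/fl and 0.16 (SE 0.34) in *Xbp1* LKO mice, and both pairs of groups overlapped. The first was -0.18 and 0.46 without *Xbp1* fl/fl chow library 1 and 2, and 0.18 and 0.024 without *Xbp1* fl/fl HFS library 1 and 3. The second was 0.62 and -0.19 without *Xbp1* LKO chow library 1 and 2, and 0.061 without *Xbp1* LKO HFS library 2.

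*Cyp2a12* encodes a testosterone 7-alpha-hydroxylase. Its values were 451, 731 and 798 CPM in *Xbp1* fl/fl chow libraries, 439 and 428 CPM in *Xbp1* LKO chow libraries, 678, 994 and 738 CPM in *Xbp1* fl/fl HFS libraries, and 728, 719 and 489.8 CPM in *Xbp1* LKO HFS libraries. By TMM the *Xbp1* LKO chow libraries were the lowest of all 11, just under the lowest *Xbp1* fl/fl chow library. With library totals the chow groups overlapped. *Xbp1* fl/fl chow library 1 was then the lowest at 418.6 CPM, below 477 and 511 CPM in *Xbp1* LKO chow libraries. The genotype difference was a log2 fold change of -0.61 on chow (SE 0.26, adjusted p = 0.237) and -0.32 on the HFS diet (SE 0.23, adjusted p = 0.559), neither of them called. The HFS value was -0.13 without *Xbp1* fl/fl HFS library 2 and -0.15 without *Xbp1* LKO HFS library 3. Its diet difference was 0.28 (SE 0.23) in *Xbp1* fl/fl mice, where the groups overlapped, and 0.57 (SE 0.26) in *Xbp1* LKO mice, where they did not. The first was 0.072 and 0.44 without *Xbp1* fl/fl chow library 1 and 3, and 0.10 without *Xbp1* fl/fl HFS library 2.

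*Cyp2a22*, a close relative of *Cyp2a12*, had 0.938, 1.33 and 0.149 CPM in *Xbp1* fl/fl chow libraries, 4.82 and 3.71 CPM in *Xbp1* LKO chow libraries, 0.857, 1.93 and 3.58 CPM in *Xbp1* fl/fl HFS libraries, and 1.96, 4.83 and 13.6 CPM in *Xbp1* LKO HFS libraries. Both *Xbp1* LKO chow libraries lay above all 3 *Xbp1* fl/fl chow libraries, while the HFS groups overlapped and their libraries spread widely. The log2 fold change between genotypes was 2.43 on chow (SE 0.85, adjusted p = 0.138) and 1.68 on the HFS diet (SE 0.70, adjusted p = 0.245), and neither was called. The HFS value was 2.28 without *Xbp1* fl/fl HFS library 3 and 0.68 without *Xbp1* LKO HFS library 3. On diet it differed by 1.42 (SE 0.82) in *Xbp1* fl/fl and by 0.67 (SE 0.76) in *Xbp1* LKO mice, with overlap in both. The first of these was 0.90 without *Xbp1* fl/fl chow library 3 and 0.81 without *Xbp1* fl/fl HFS library 3, and the second 1.11 without *Xbp1* LKO HFS library 1 and -0.33 without *Xbp1* LKO HFS library 3. Of the counts of *Cyp2a22* and *Cyp2a12* together, *Cyp2a22* held 0.136% ± 0.102 (mean ± SD) in *Xbp1* fl/fl chow, 0.973% ± 0.160 in *Xbp1* LKO chow, 0.268% ± 0.189 in *Xbp1* fl/fl HFS and 1.21% ± 1.30 in *Xbp1* LKO HFS libraries.

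*Cyp2b9* encodes a steroid hydroxylase known as a female-predominant member of its subfamily. The *Xbp1* fl/fl chow libraries had 0.496, 0.231 and 0.0498 CPM, *Xbp1* LKO chow libraries 3.92 and 2.93 CPM, *Xbp1* fl/fl HFS libraries 10.4, 3.26 and 21.3 CPM, and *Xbp1* LKO HFS libraries 11.5, 5.99 and 13.7 CPM. The *Xbp1* fl/fl chow libraries, with 9, 4 and 1 counts, lay below all other libraries, and the HFS-fed groups of the genotypes overlapped. On chow *Cyp2b9* was higher in *Xbp1* LKO libraries by a log2 fold change of 3.73 (SE 0.87, 13.2-fold, adjusted p = 0.0343 by the quasi-likelihood test of edgeR, Benjamini-Hochberg adjusted), in 2 of 2 libraries. That call was lost when any of the 5 chow libraries was left out. The log2 fold change was then 4.62, 3.67 or 3.21 without *Xbp1* fl/fl library 1, 2 or 3 (adjusted p of 0.0537, 0.103 and 0.0964), and 3.50 or 3.92 without *Xbp1* LKO library 1 or 2 (adjusted p of 0.0871 and 0.123).

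On the HFS diet the genotype difference of *Cyp2b9* was -0.17 (SE 0.53, adjusted p = 0.926). It was 0.095 with library totals, a scaling that moved the median of all genes from 0.008 to 0.27. Its diet difference was 5.49 (SE 0.79, 45.0-fold) in *Xbp1* fl/fl mice and 1.60 (SE 0.65, 3.03-fold) in *Xbp1* LKO mice. In both genotypes the 3 HFS libraries stood above all chow libraries. The first value was 6.38 without *Xbp1* fl/fl chow library 1 and 4.73 without *Xbp1* fl/fl HFS library 3. The difference between the diet effects was -3.89 with an SE of 1.04, and -4.78 and -3.13 without those libraries. The genotype difference on the HFS diet turned to 0.60 without *Xbp1* fl/fl HFS library 3 and 0.11 without *Xbp1* LKO HFS library 2, and was -0.61 and -0.41 without *Xbp1* fl/fl HFS library 2 and *Xbp1* LKO HFS library 3.

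*Cyp2b10* encodes the member most used as a readout of CAR activity in mouse liver. It stood at 3.75, 5.95 and 2.24 CPM in *Xbp1* fl/fl chow libraries, 5.72 and 3.23 CPM in *Xbp1* LKO chow libraries, 7.34, 23.3 and 20.1 CPM in *Xbp1* fl/fl HFS libraries, and 4.24, 0.892 and 2.38 CPM in *Xbp1* LKO HFS libraries. The *Xbp1* fl/fl HFS libraries were the 3 highest, and the other 3 groups overlapped. Between genotypes on the HFS diet, *Cyp2b10* was lower in *Xbp1* LKO mice by a log2 fold change of -2.76 (SE 0.56, 6.79-fold, adjusted p = 0.0206; the quasi-likelihood test of edgeR, Benjamini-Hochberg adjusted), in 3 of 3 libraries. Leaving out *Xbp1* fl/fl HFS library 2 or 3 (-2.46 and -2.62, adjusted p of 0.0668 and 0.0685) or *Xbp1* LKO HFS library 2 or 3 (-2.36 and -2.73, adjusted p of 0.0764 and 0.0822) ended that call. Without *Xbp1* LKO HFS library 1 the difference widened to -3.37 and was called (adjusted p = 0.0159). On chow it was 0.18 (SE 0.62, adjusted p = 0.913) with overlapping groups, and it turned negative without *Xbp1* fl/fl chow library 3 (-0.11) or *Xbp1* LKO chow library 1 (-0.29), and was 0.58 and 0.53 without *Xbp1* fl/fl chow library 2 and *Xbp1* LKO chow library 2.

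With diet, *Cyp2b10* differed by a log2 fold change of 2.09 (SE 0.55) in *Xbp1* fl/fl mice, where the 3 HFS libraries were above the 3 chow libraries. In *Xbp1* LKO mice it differed by -0.85 (SE 0.62), with 2 of 3 HFS libraries below both chow libraries and 1 between them. The difference between the diet effects was -2.94 with an SE of 0.82. The diet value in *Xbp1* LKO mice was -0.38 without *Xbp1* LKO chow library 1, -0.44 without *Xbp1* LKO HFS library 2 and -1.45 without *Xbp1* LKO HFS library 1. The last of these fits gave a difference between the diet effects of -3.55, and over all left-out libraries it ran from -3.55 to -2.48.

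*Cyp2b13*, another female-predominant gene, had 0, 2 and 0 counts in *Xbp1* fl/fl chow libraries, 2 and 5 in *Xbp1* LKO chow libraries, 6, 1 and 9 in *Xbp1* fl/fl HFS libraries, and 9, 5 and 6 in *Xbp1* LKO HFS libraries. With 9 counts at most it did not pass the filter on low counts and was not tested. Its levels lie too close to 0 for its groups to be compared at this depth.

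**Figure D3:**
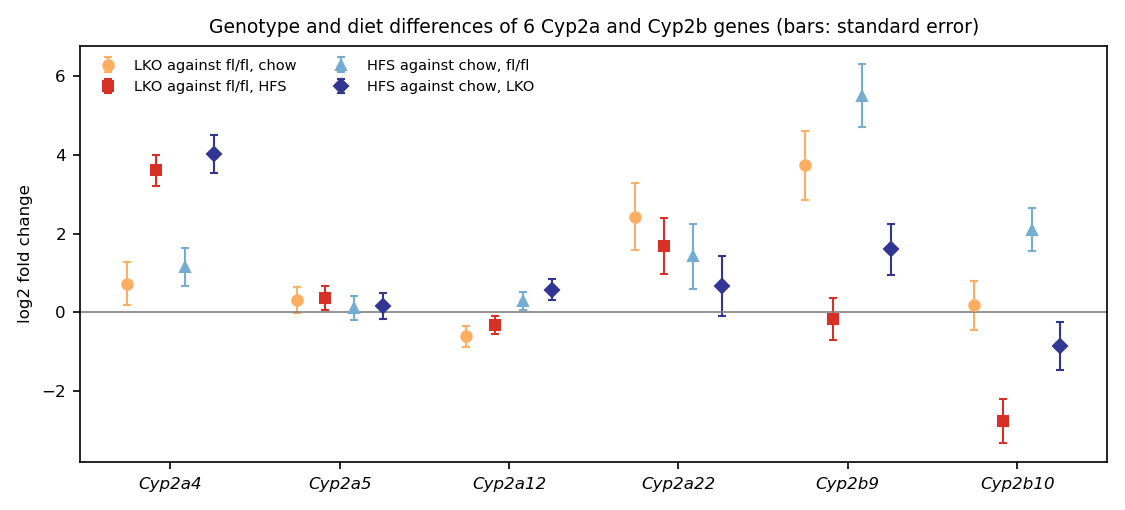
Log2 fold changes (points) with standard errors (bars) of the 6 members that passed the filter, for LKO against fl/fl on chow and on the HFS diet and for HFS against chow in each genotype. The diet points describe the choice of members and carry no test; the highest point is the diet difference of *Cyp2b9* in *Xbp1* fl/fl mice (5.49) and the lowest is the genotype difference of *Cyp2b10* on the HFS diet (-2.76).

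In the genotype comparison on chow, 1 of the 6 members that passed the filter was called, *Cyp2b9* as higher. Over all 13303 genes 4.75% were called, 1.73% as higher and 3.02% as lower. On the HFS diet 2 of these 6 were called, *Cyp2a4* as higher and *Cyp2b10* as lower, where 4.08% of all genes were called, 1.92% as higher and 2.16% as lower. The genotype comparisons share their libraries with the diet comparisons by which the subfamilies came to attention, and the filter favours a gene that is high in some group. These counts therefore describe the members and support nothing about the set.

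In *Xbp1* fl/fl mice the HFS and chow libraries did not overlap for 3 of the 6 members (*Cyp2a4*, *Cyp2b9* and *Cyp2b10*), all higher on the HFS diet. Of all 13303 genes 0.428% were called in that comparison, 0.135% as higher and 0.293% as lower, which is a stricter measure. By overlap alone, 13.7% of all genes were apart, 6.33% as higher and 7.34% as lower. In *Xbp1* LKO mice *Cyp2a4*, *Cyp2a12* and *Cyp2b9* did not overlap between diets, again all higher on the HFS diet, and 0.0601% of all genes were called, 0.0451% as higher and 0.015% as lower. There 31.1% of all genes did not overlap, 16.7% as higher and 14.4% as lower. Nothing is read from these member counts, because the choice used the diet values. As a description, diet-responsive does not suit all 7. In the fit of all 11 libraries the diet differences of *Cyp2a5* lay within 1 standard error of 0 in both genotypes. With 1 library left out they ran from -0.18 to 0.46 in *Xbp1* fl/fl and from -0.19 to 0.62 in *Xbp1* LKO mice. *Cyp2b13* was too low to say.

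For the difference between the diet effects of the genotypes, 0% of all genes were called by edgeR's quasi-likelihood test, 0 of 13303. At an unadjusted p under 0.05 it found 816 genes, and DESeq2 called 31. The member values of this difference are descriptions as well, since they are built from the diet effects. They were 2.87 for *Cyp2a4*, 0.29 (SE 0.35) for *Cyp2a12*, 0.04 (SE 0.45) for *Cyp2a5*, -0.75 (SE 1.10) for *Cyp2a22*, -2.94 for *Cyp2b10* and -3.89 for *Cyp2b9*. The estimate was positive for *Cyp2a4* and negative for *Cyp2b9* and *Cyp2b10*. With library totals the *Cyp2a5* value became -0.016, and the other 5 kept their sign. That scaling moved the median of all genes from 0.009 to -0.059.

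Some of these differences moved with a single library. The *Cyp2a5* value fell below 0 without *Xbp1* fl/fl chow library 2 (-0.30), *Xbp1* LKO chow library 2 (-0.31), *Xbp1* fl/fl HFS library 1 (-0.025) or *Xbp1* LKO HFS library 2 (-0.054), and reached 0.50 without *Xbp1* LKO chow library 1, so its direction is not set. The *Cyp2a12* value was 0.50 and 0.13 without *Xbp1* fl/fl chow library 1 and 3, 0.18 and 0.47 without *Xbp1* fl/fl HFS library 1 and 2, and 0.45 without *Xbp1* LKO HFS library 3. That of *Cyp2a22* was -1.31 and -0.23 without *Xbp1* fl/fl chow library 2 and 3, -1.13 and -0.14 without *Xbp1* fl/fl HFS library 1 and 3, and -0.31 and -1.74 without *Xbp1* LKO HFS library 1 and 3.

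Summed over the subfamily, Cyp2b transcripts came to 4.25, 6.30 and 2.29 CPM in *Xbp1* fl/fl chow libraries, 9.73 and 6.38 CPM in *Xbp1* LKO chow libraries, 18.1, 26.6 and 41.8 CPM in *Xbp1* fl/fl HFS libraries, and 16.1, 7.07 and 16.3 CPM in *Xbp1* LKO HFS libraries. The *Xbp1* fl/fl HFS libraries were highest by TMM, but with library totals the HFS groups overlapped (16.9 CPM in *Xbp1* fl/fl library 1 against 18.3 CPM in *Xbp1* LKO library 3). The fit of the summed counts did not call this difference (-1.13, adjusted p = 0.148). *Cyp2b10* made up 93.5% ± 4.83 of the subfamily sum in *Xbp1* fl/fl chow, 54.7% ± 5.72 in *Xbp1* LKO chow, 58.8% ± 25.2 in *Xbp1* fl/fl HFS and 17.8% ± 7.37 in *Xbp1* LKO HFS libraries. By this share the main Cyp2b transcript was *Cyp2b10* in *Xbp1* fl/fl chow hepatocytes and *Cyp2b9* in *Xbp1* LKO HFS hepatocytes.

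The Cyp2a sum was 1002, 2164 and 1832 CPM in *Xbp1* fl/fl chow libraries, 2042 and 1339 CPM in *Xbp1* LKO chow libraries, 1662, 2058 and 1963 CPM in *Xbp1* fl/fl HFS libraries, and 2054, 2318 and 1816.5 CPM in *Xbp1* LKO HFS libraries. By TMM these ranges overlapped between all 4 groups. With library totals the *Xbp1* LKO HFS libraries had 2039.4 to 2608.9 CPM. They then lay above the *Xbp1* fl/fl libraries on the HFS diet (at most 1880.2 CPM) and on chow (at most 1899.5 CPM). That scaling also raised the median genotype difference of all genes on the HFS diet, to 0.27. *Cyp2a5* took 59.1% ± 6.08 of the Cyp2a sum in *Xbp1* fl/fl chow, 72.9% ± 7.46 in *Xbp1* LKO chow, 57.6% ± 5.46 in *Xbp1* fl/fl HFS and 67.8% ± 4.09 in *Xbp1* LKO HFS libraries. With *Cyp2a4* added to *Cyp2a5* before the fit, the genotype difference on the HFS diet was 0.37 (adjusted p = 0.598), since the called rise of *Cyp2a4* is small beside the level of its partner.

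Several members are so alike in sequence that short reads can fit more than 1 of them. Coding sequences of *Cyp2a4* and *Cyp2a5* were 98.4% identical, with 23 of 1482 bases different and no gap, and shared 13 runs of 50 or more bases, the longest of 216. *Cyp2a12* and *Cyp2a22* shared 97.0% of their coding bases, *Cyp2b9* and *Cyp2b13* 92.7%, *Cyp2b10* and *Cyp2b13* 87.2%, and *Cyp2b9* and *Cyp2b10* 86.3%. Identity between a Cyp2a and a Cyp2b gene was 60.8% to 62.0%.

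All 50-base windows were taken from each member's transcript with the longest coding region. The share of them found in no other annotated gene was 61.2% for *Cyp2a4*, 59.2% for *Cyp2a5*, 72.5% for *Cyp2a12*, 74.3% for *Cyp2a22*, 88.8% for *Cyp2b9*, 89.8% for *Cyp2b10* and 72.7% for *Cyp2b13*. In the count files, 256 of 263 sets of genes with identical transcripts had no count in any library. How reads that fit both *Cyp2a4* and *Cyp2a5* were counted is not settled, and how many *Cyp2a4* reads are misplaced *Cyp2a5* reads was not tested. On the HFS diet *Cyp2a5* was 1.28-fold higher in *Xbp1* LKO mice, which was not called, and *Cyp2a4* 12.1-fold.

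The stretch of the coding sequence below, bases 596 to 655 counted from the first base of the start codon in GENCODE M21 transcripts, shows where the genes differ. It holds 4 of the 23 differences, in capitals, among them base 625, the first of codon 209. In work on these enzymes, the residue at that codon is known for setting the preference between steroid and coumarin.
Cyp2a4: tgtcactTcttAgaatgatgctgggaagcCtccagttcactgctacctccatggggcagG
Cyp2a5: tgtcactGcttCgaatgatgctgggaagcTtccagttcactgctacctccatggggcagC

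Promoters were compared as well. All 7 members matched the RefSeq promoter table (GRCm38.p6), which runs from 250 bases before to 50 after each gene's start. Over that window *Cyp2a4* and *Cyp2a5* were 98.3% identical (5 of 299 aligned bases differed), *Cyp2b9* and *Cyp2b13* 99.3% (2 of 300), *Cyp2a12* and *Cyp2a22* 89.6%, and *Cyp2b9* and *Cyp2b10* 74.6%. The plus-strand sequences of the most similar pairs, from 250 to 41 bases before the start, are printed below. They cover chr7:26306942-26307151 for *Cyp2a4*, chr7:26835089-26835298 for *Cyp2a5*, chr7:26173159-26173368 for *Cyp2b9* and chr7:26061245-26061454 for *Cyp2b13*. Capitals mark bases that differ within a pair, 4 for *Cyp2a4* and *Cyp2a5* and 2 for *Cyp2b9* and *Cyp2b13*.
Cyp2a4: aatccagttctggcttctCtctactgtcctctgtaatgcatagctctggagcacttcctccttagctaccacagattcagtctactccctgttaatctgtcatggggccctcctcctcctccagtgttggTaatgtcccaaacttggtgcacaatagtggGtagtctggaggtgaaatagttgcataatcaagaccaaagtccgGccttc
Cyp2a5: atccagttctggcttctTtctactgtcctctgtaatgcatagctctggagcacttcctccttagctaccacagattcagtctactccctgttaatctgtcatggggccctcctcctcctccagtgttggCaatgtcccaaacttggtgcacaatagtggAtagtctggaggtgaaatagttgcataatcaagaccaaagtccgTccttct
Cyp2b9: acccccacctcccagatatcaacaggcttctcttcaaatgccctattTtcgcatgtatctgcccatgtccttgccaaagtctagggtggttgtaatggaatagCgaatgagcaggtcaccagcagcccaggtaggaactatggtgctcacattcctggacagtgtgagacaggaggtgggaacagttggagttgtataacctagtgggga
Cyp2b13: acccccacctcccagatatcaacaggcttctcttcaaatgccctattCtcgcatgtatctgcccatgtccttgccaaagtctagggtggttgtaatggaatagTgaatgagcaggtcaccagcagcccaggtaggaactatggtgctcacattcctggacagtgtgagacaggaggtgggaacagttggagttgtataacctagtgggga

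The members' promoters were searched on both strands for exact letters. TATAAA was found in all 4 Cyp2a promoters, 28, 29, 39 and 28 bases before the start of *Cyp2a4*, *Cyp2a5*, *Cyp2a12* and *Cyp2a22*, and in none of the 3 Cyp2b promoters. It occurs in 13.6% of all 32544 promoters listed. None of the 7 held TTCNNNGAA, the letters of the STAT5 motif (8.33% of all promoters), CAAAGTCCA of HNF4A (0.479%), TTGCGCAA of C/EBP (0.184%) or TTACGTAA of the PAR bZIP factors (0.12%). A match is a string of letters and not evidence of binding, and these letters may lie outside the window. Near matches were not counted. The stretches of *Cyp2a4* and *Cyp2a5* printed above hold caaagtccg, which differs from the HNF4A letters at the last base.

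The Cyp2 genes beside the members did not share 1 pattern. *Cyp2f2*, which lies beyond *Cyp2a12*, is known for its periportal expression and for activating naphthalene. It fell from 1095.5, 1869 and 1502.5 CPM in *Xbp1* fl/fl chow libraries to 197 and 66.9 CPM in *Xbp1* LKO chow libraries, and from 997, 1394 and 1109 CPM to 390.5, 155 and 174 CPM on the HFS diet. The genotype groups did not overlap on either diet, with log2 fold changes of -3.49 (SE 0.54, adjusted p = 0.00557) and -2.28 (SE 0.43, adjusted p = 0.0141) by the quasi-likelihood test of edgeR, Benjamini-Hochberg adjusted. The chow call was lost without *Xbp1* LKO chow library 2 (-2.92, adjusted p = 0.0588) and the HFS call without *Xbp1* LKO HFS library 2 (-2.05, adjusted p = 0.0764) or 3 (-2.10, adjusted p = 0.0673). *Cyp2g1* had 2.32 to 5.46 CPM, *Cyp2t4* 0.0744 to 0.611 CPM, *Cyp2s1* and *Cyp2b19* at most 0.0815 CPM, and *Cyp2b23* no count in any library. Of 9 tested neighbours in the cluster, edgeR called only *Cyp2f2* between genotypes and none between diets. DESeq2 also called *Ltbp4*, as lower on chow and higher with diet in *Xbp1* LKO mice, and library totals called *Ltbp4* and *Snrpa* on chow and the replicate block *Ltbp4*. Without a filter edgeR called *Ltbp4* on chow, and *Axl*, *Ltbp4* and *Cyp2f2* as higher with diet in *Xbp1* LKO mice.

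Among 26 tested genes of other Cyp2 subfamilies, 1 was higher and 2 lower in *Xbp1* LKO mice on chow (*Cyp2c38* against *Cyp2r1* and *Cyp2u1*), and 3 were higher on the HFS diet (*Cyp2c38*, *Cyp2c39* and *Cyp2d12*). Their median log2 fold change was -0.19 on chow and -0.15 on the HFS diet, where all genes had 0.002 and 0.008. With library totals these medians were 0.12 and 0.11, where all genes had 0.33 and 0.27. The calls on chow were then 5 higher and 1 lower. An edgeR fit of only the groups compared called 0 of the list on chow. On the HFS diet that fit called 2 as higher and 2 as lower. The *Cyp2c38* level was 36.2, 13.9 and 27.4 CPM in *Xbp1* fl/fl chow libraries and 91.0 and 67.0 CPM in *Xbp1* LKO chow libraries, and on the HFS diet 16.6, 16.6 and 32.1 CPM against 77.2, 102 and 75.8 CPM. Its HFS difference of 1.97 (SE 0.34, adjusted p = 0.00922) was called with any library left out. The other calls of this list each ended without at least 2 of the libraries. In both diet comparisons *Cyp2d40* was the 1 gene called, as higher, and it lost the call without 6 of 11 libraries in *Xbp1* fl/fl and 9 of 11 in *Xbp1* LKO mice.

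Of 26 genes that encode regulators of Cyp2a and Cyp2b transcription, receptors such as CAR and PXR and their partners among them, 1 was called on each diet. *Ahr* was higher in *Xbp1* LKO mice on chow (0.83, SE 0.20, adjusted p = 0.0413) and *Nfe2l2*, which encodes NRF2, on the HFS diet (0.59, SE 0.12, adjusted p = 0.0191; the quasi-likelihood test of edgeR, Benjamini-Hochberg adjusted). *Nfe2l2* read 64.3, 75.2 and 86.7 CPM in *Xbp1* fl/fl chow, 81.2 and 86.9 CPM in *Xbp1* LKO chow, 73.1, 66.0 and 72.9 CPM in *Xbp1* fl/fl HFS and 105, 115 and 100.4 CPM in *Xbp1* LKO HFS libraries. Without *Xbp1* fl/fl HFS library 1, 2 or 3 or *Xbp1* LKO HFS library 2 its call was lost, at log2 fold changes of 0.54 to 0.62. *Ahr* lost its call without 8 of 11 libraries, with an adjusted p of up to 0.424. The medians of the list were -0.044 and 0.00 on the diets, and edgeR called no gene between diets. With library totals the medians were 0.28 and 0.26, with 4 and 3 genes called as higher, and without a filter 3 genes were called as higher with diet in *Xbp1* fl/fl mice.

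Target genes of CAR and PXR other than the members went in both directions. Of 33 tested, 2 were higher (*Meg3* and *Abcc4*) and 1 lower (*Ces2a*) in *Xbp1* LKO mice on chow, and 4 were higher (*Meg3*, *Ugt1a9*, *Gstm3* and *Aldh1a1*) and 1 lower (*Ces2a*) on the HFS diet, with medians of 0.056 and -0.019. *Ugt1a9* had 8.76, 7.99 and 5.14 CPM in *Xbp1* fl/fl HFS and 38.0, 43.2 and 31.6 CPM in *Xbp1* LKO HFS libraries, a log2 fold change of 2.36 (SE 0.28, adjusted p = 0.00226), the opposite direction to *Cyp2b10* in the same comparison, while *Ces2a* fell as *Cyp2b10* did (-1.65, SE 0.28, adjusted p = 0.00834). That call and the HFS calls of *Meg3*, *Gstm3*, *Aldh1a1* and *Ces2a* held with any library left out, as did the chow call of *Meg3*. The chow call of *Ces2a* (-1.44, adjusted p = 0.0263) ended without *Xbp1* fl/fl chow library 2 or 3 or *Xbp1* LKO chow library 2, and that of *Abcc4* (3.42, adjusted p = 0.0475) without 8 of 11 libraries. Between diets edgeR called *Ugt1a9* alone, as lower in *Xbp1* fl/fl HFS mice (-1.79, adjusted p = 0.024), where DESeq2 called 6 of the list as lower, and it lost the call without *Xbp1* fl/fl chow library 2 or 3 or any *Xbp1* fl/fl HFS library.

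Because *Cyp2a4*, *Cyp2b9* and *Cyp2b13* are female-predominant, genes with a known sex difference in liver were counted with these 3 left out. Of 29 tested female-predominant genes, 2 were higher in *Xbp1* LKO mice on chow (*Vldlr* and *Tox*) and 2 on the HFS diet (*Slc22a27* and *Ntrk2*), with none lower. Their medians of 0.56 and 0.69 compare with 0.002 and 0.008 over all genes. Of 39 tested male-predominant genes, 1 was higher (*Ihh*) and 4 lower on chow (*Hc*, *Gstp1*, *Mup3* and *Mup12*) and 4 were lower on the HFS diet (*Hc*, *Igfbp2*, *Mup12* and *Selenbp2*), with medians of -0.18 and -0.28. With library totals the male-predominant medians became 0.19 and -0.027 and the female-predominant medians 0.89 and 0.95. Totals also moved the median of all genes, to 0.33 on chow and 0.27 on the HFS diet. The male-predominant medians thus stayed below that of all genes under both scalings. The calls of *Hc* on both diets and of *Ihh* on chow held with any library left out, and each of the other 10 genotype calls ended without at least 3 libraries.

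Between diets *Lpl* was called as higher in *Xbp1* fl/fl mice and *Rtn4* in *Xbp1* LKO mice among the female-predominant genes, and *Ihh* in *Xbp1* fl/fl mice among the male-predominant ones. These diet calls ended without 10, 6 and 7 of the 11 libraries. Of 17 genes of growth hormone and STAT5 signalling, *Stat5a* was called as higher on chow (0.85, SE 0.20, adjusted p = 0.0327) and none on the HFS diet. *Stat5a* lost its call without *Xbp1* fl/fl chow library 2 or 3, *Xbp1* LKO chow library 2 or *Xbp1* fl/fl HFS library 3. All libraries carried male transcripts, with *Ddx3y* at 53.4 to 88.4 CPM, *Eif2s3y* at 39.7 to 61.9, *Kdm5d* at 17.6 to 24.9 and *Uty* at 11.4 to 17.4, against at most 0.166 CPM of *Xist* and 0.0552 of *Tsix*.

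Over the 11 libraries, the genes with the pattern most like each member were found among 11124 genes by Pearson's r of log2 CPM. For *Cyp2a4* they were *Inhbc* (r = 0.975), *Snx18* (0.95) and *Gk* (0.944). *Inhbc* stood at 115, 106 and 96.7 CPM in *Xbp1* LKO HFS libraries and at 54.8 to 80.4 CPM in the other 8, so it shared the step of *Cyp2a4* at a far smaller ratio. Among the patterns near *Cyp2a5* were *Atxn3* (0.899) and *5033406O09Rik* (0.885), and the nearest to *Cyp2a12* were *Apob* (0.952), *Serping1* (0.911) and *Manea* (0.902). *Cyp2a22* ran closest to *Rbm19* (0.953), *Limd1* (0.952) and *Chd1l* (0.945), *Cyp2b9* to *Gcc1* (0.949), *Chsy3* (0.932) and *Exoc8* (0.897), and *Cyp2b10* to *Abcd4* (0.875), *Clptm1* (0.861) and *Cnnm3* (0.846). Libraries share groups, so r holds the group pattern and is a description only.

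Among the 6 members themselves r over the same libraries ran from -0.40 (*Cyp2a12* with *Cyp2a22*) to 0.70 (*Cyp2a22* with *Cyp2b9*). It was 0.64 for *Cyp2a4* with *Cyp2a5* and 0.22 for *Cyp2b9* with *Cyp2b10*. Close relatives were thus found near both ends of this range.

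Levels of hepatocyte markers are given beside these results. *Alb* took 8.06%, 9.97% and 10.9% of the counts in *Xbp1* fl/fl chow libraries, 3.72% and 1.67% in *Xbp1* LKO chow libraries, 6.70%, 5.88% and 7.42% in *Xbp1* fl/fl HFS libraries, and 5.40%, 3.33% and 4.38% in *Xbp1* LKO HFS libraries. The 30 hepatocyte markers summed to 226180, 235610 and 239900 CPM in *Xbp1* fl/fl chow libraries, 133360 and 96818 CPM in *Xbp1* LKO chow libraries, 189580, 203380 and 204890 CPM in *Xbp1* fl/fl HFS libraries, and 144670, 108700 and 120540 CPM in *Xbp1* LKO HFS libraries. All 30 had a count in every library, *Alb* was the most abundant, and the *Xbp1* LKO libraries were lowest. In bulk libraries, fewer cells of a type and less RNA per cell cannot be told apart, which holds for each member above. *Alb* alone averaged 64168 CPM of that sum. Of these markers 5 were called lower in *Xbp1* LKO mice on chow (*Alb*, *Serpina1a*, *Serpina1b*, *Serpina1c* and *F2*) and 3 on the HFS diet (*Apoa1*, *Serpina1c* and *F2*), with medians of -0.54 and -0.56, and each call ended without at least 1 library.

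Markers of other liver cells were present at low levels. The 20 endothelial markers, led by *Stab2*, summed to 231, 92.8 and 126 CPM in *Xbp1* fl/fl chow libraries, 70.2 and 54.4 CPM in *Xbp1* LKO chow libraries, 299, 171 and 259.5 CPM in *Xbp1* fl/fl HFS libraries, and 249, 146 and 139 CPM in *Xbp1* LKO HFS libraries. The 20 macrophage markers, led by *Cd5l*, summed in the same order to 109, 26.0 and 27.2, to 29.8 and 44.1, to 70.1, 53.9 and 49.5, and to 70.2, 76.7 and 123 CPM. HFS-fed libraries of both genotypes thus held more endothelial RNA than most chow-fed libraries, as they held more *Cyp2b9*. The 16 stellate cell markers, led by *Ecm1*, summed in that order to 67.2, 20.1 and 24.8, to 14.6 and 17.2, to 62.5, 41.9 and 34.9, and to 82.6, 51.1 and 40.3 CPM. In *Xbp1* LKO mice the HFS libraries lay above the chow libraries in this sum, as for *Cyp2a4*, with all 13 tested stellate markers higher (median 2.26) and none called. The 16 lymphocyte and neutrophil markers ran from 0.697 to 6.43 CPM. *Cd4*, the most abundant of them, was called as higher with diet in *Xbp1* fl/fl mice (1.99, SE 0.35, adjusted p = 0.0422), a call that ended without 9 of 11 libraries. No marker of these lists was at 0 in every library, and 0, 1, 4 and 15 markers of the endothelial, macrophage, stellate and lymphocyte lists were at 0 in some library. No endothelial, macrophage, stellate or lymphocyte marker was called between genotypes. Positive on chow were 0 of 20 endothelial (median -1.34), 1 of 19 macrophage (-0.48) and 0 of 13 stellate markers (-1.20), and on the HFS diet 1 of 20 (-0.47), 18 of 19 (0.64) and 10 of 13 (0.38). With diet, 20 of 20, 11 of 19 and 12 of 13 were positive in *Xbp1* fl/fl mice (medians of 0.75, 0.067 and 0.45), and 20 of 20 endothelial (1.52) and 19 of 19 macrophage markers (1.31) in *Xbp1* LKO mice. Of the lymphocyte and neutrophil markers only 3 were tested, of which 3 were positive between genotypes on chow (median 1.68), 2 on the HFS diet (1.54) and 3 with diet in each genotype (1.99 and 1.54).

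Among the remaining markers, *Sox9* and *Wfdc2* of the cholangiocyte list were lower in *Xbp1* LKO mice on chow, and *Ddr1* was higher and *Wfdc2* lower on the HFS diet, calls that each ended without at least 1 library. The part of these cells in the differences of *Cyp2a4*, *Cyp2b9* and *Cyp2b10* was not tested.

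The scaling of libraries matters for direction, because *Xbp1* LKO libraries had TMM factors of 1.05 to 1.19 and *Xbp1* fl/fl libraries of 0.878 to 0.938. With library totals in place of TMM the median genotype difference of all genes rose to 0.33 on chow and 0.27 on the HFS diet. The 230 higher and 402 lower genes on chow then became 2685 and 315, and the 256 higher and 287 lower on the HFS diet became 1288 and 195. The genotype differences with totals were 4.04 on chow for *Cyp2b9*, and 3.86 for *Cyp2a4* and -2.51 for *Cyp2b10* on the HFS diet, so these 3 members were called under both scalings.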

How the data were processed

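The authors deposited whole-number counts per Ensembl gene for 11 libraries, not normalized. The submitters' processing notes name cutadapt 1.13, STAR, HTSeq 0.6.1p1 and mm10, and the paper's methods name kallisto, tximport and DESeq2. The conflict was not settled, though genes with identical transcripts had almost no counts. GENCODE M21 gave symbols, positions and exon lengths for 54165 of 54232 genes.

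In R 4.3.3, edgeR 4.0.16 computed TMM factors, filtered genes (filterByExpr, minimum count 10) and estimated all 4 groups in 1 quasi-likelihood fit, with a threshold of 0.05 after Benjamini-Hochberg adjustment. The code was tested on simulated data. Standard errors are the log2 fold change over the square root of F. For patterns, CPM were put on a log2 scale (prior count 2) and genes averaging at least 1 CPM were searched.

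The members and lists were chosen with earlier results of these data known. Genes named were taken from the members, *Xbp1*, the 3 genes of smallest p per list in each genotype comparison, those called in a diet comparison, up to 3 of the nearest patterns per member, sex chromosome transcripts, Cyp2 neighbours and the most abundant marker of the cell types whose sums are given. *Mup3*, *Selenbp2*, *Aldh1a1*, *Serpina1b* and *Snrpa* were named after their values were seen, to complete a count. Protein identity was planned but no protein table was at hand, so coding sequences were compared.

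Alternatives were DESeq2 1.42.0, RLE size factors, library totals, no filter, a minimum count of 30, only the groups compared, replicate number as a block, near-identical genes summed, a prior count of 0.5, and each library left out in turn. Replicates of a group varied 25.4 to 91.5 times as much as counting noise alone would give. Same-numbered libraries are different animals.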

Additional observations from a re-analysis of the deposited data

How the results depend on the processing

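Over the alternatives to the processing, the call of *Cyp2a4* on the HFS diet held under all but 1, the summing of *Cyp2a4* with *Cyp2a5*, which gave 0.373 (adjusted p = 0.598) because the sum is nearly all *Cyp2a5*. With the Cyp2b genes summed, *Cyp2b9* on chow became 0.923 (adjusted p = 0.321) and *Cyp2b10* on the HFS diet -1.13 (adjusted p = 0.148), values of the 3 genes together. *Cyp2a22* was called on chow with library totals (2.75, adjusted p = 0.0368) and with no filter (2.45, adjusted p = 9.1e-09), and on the HFS diet with no filter (1.68, adjusted p = 4.16e-06); the cause was not tested. The sign of *Cyp2b9* on the HFS diet changed with library totals (0.095) and with the replicate block (0.032), both far inside its SE of 0.53. Library totals moved the median of all genes there to 0.27. The block changed no call of a member, and it also turned the diet difference of *Cyp2a22* in *Xbp1* LKO mice from 0.67 to -0.034 and the *Cyp2a5* difference between diet effects from 0.042 to -0.052. Deviations of same-numbered libraries from their group means had a mean r of -0.009 over 15 pairs (-0.199 to 0.231), so pairing has little base. The block and these pairs use the number in the title, and the file of *Xbp1* LKO chow library 2 carries another number.

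Counts of called genes moved further than those of the members. DESeq2 called 1115 genes between genotypes on chow (632 in the edgeR fit reported) and 987 on the HFS diet (543). Between diets it called 175 in *Xbp1* fl/fl (57) and 210 in *Xbp1* LKO mice (8), and 31 for the difference of diet effects (0). It tested 26012 genes against 13303 in the fit reported, so the tool and the genes tested changed together. Library totals gave 3000 and 1483 genes between genotypes. Without a filter there were 1507, 1438, 499, 722 and 269 calls in the same order. A fit of only the groups compared called 233 genes between genotypes on chow and 809 on the HFS diet, fewer and more than the fit reported; the cause was not tested. Between diets in *Xbp1* LKO mice that fit called 0 by edgeR's quasi-likelihood test, with 1745 at an unadjusted p under 0.05. The 210 calls of DESeq2 in this comparison come from its fit of 26012 genes, which was not limited to these groups. The replicate block called 19 and the fit with near-identical genes summed 5. The cause was not tested. A fit of only the groups compared does not apply to the difference of diet effects.

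Leaving out 1 library at a time gave 69 to 762 genes between genotypes on chow, the fewest without *Xbp1* LKO library 2, and 326 without *Xbp1* fl/fl library 2. On the HFS diet it gave 184 to 662, with 239, 275 and 230 without *Xbp1* fl/fl library 1, 2 and 3, and 184 and 285 without *Xbp1* LKO library 2 and 3. Between diets it gave 6 to 59 genes in *Xbp1* fl/fl mice and 0 to 36 in *Xbp1* LKO mice, where 8 calls are too few for a count to hold. In *Xbp1* fl/fl mice there were 31, 11, 27, 14 and 6 without chow-fed library 1 or 2 or HFS-fed library 1, 2 or 3. In *Xbp1* LKO mice there were 36 and 3 without chow-fed library 1 and 2, 0, 2 and 2 without HFS-fed library 1, 2 and 3, and 15, 3, 13, 5, 2 and 0 without each *Xbp1* fl/fl library.

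Over the same fits the genotype difference ran from -0.149 to 0.667 for *Cyp2a5* on chow, from 3.21 to 4.62 for *Cyp2b9* on chow (adjusted p of 0.0102 to 0.123), from -0.292 to 0.584 for *Cyp2b10* on chow, from -0.607 to 0.599 for *Cyp2b9* on the HFS diet (positive without *Xbp1* fl/fl library 3 or *Xbp1* LKO library 2), and from -3.37 to -2.36 for *Cyp2b10* on the HFS diet (adjusted p of 0.0159 to 0.0822). Without 1 *Xbp1* LKO chow library the other is assumed to vary like the other groups. Of 28 group levels of members, 2 moved by more than 1 SD with library totals, and the 16 summed levels did not. With a prior count of 0.5, 2 or 3 of the 3 nearest patterns of each member were the same genes. The chow comparisons rest on 2 *Xbp1* LKO libraries, and the low counts of *Cyp2b9*, *Cyp2b13* and *Cyp2a4* on chow limit what depth can show there.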

Other observations

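Genes of the liver lobule's zones moved with genotype in the libraries in which *Cyp2a4*, *Cyp2b9* and *Cyp2b10* differed. Of 22 pericentral genes, 12 were higher in *Xbp1* LKO mice on chow and 8 on the HFS diet with none lower (medians of 0.88 and 0.66), and of 22 periportal genes 13 and 6 were lower with none higher (-1.83 and -1.18). *Glul*, the marker of the innermost pericentral cells, read 389.7, 183 and 243 CPM in *Xbp1* fl/fl chow, 1799.7 and 2956 CPM in *Xbp1* LKO chow, 419, 414 and 442 CPM in *Xbp1* fl/fl HFS and 2718, 2519 and 3269 CPM in *Xbp1* LKO HFS libraries. Its log2 fold changes of 3.13 (SE 0.30, adjusted p = 0.00133) and 2.74 (SE 0.28, adjusted p = 0.00138) by the quasi-likelihood test of edgeR, Benjamini-Hochberg adjusted were called with any library left out. After *Glul* the smallest p among pericentral genes were those of *Rhbg* and *Lgr5* on chow and of *Rhbg* and *Oat* on the HFS diet, and these calls held with any library left out. Among periportal genes they were those of *Ctsc*, *Aldh1b1* and *Cyp2f2* on chow, all of which ended without *Xbp1* LKO chow library 2. On the HFS diet they were those of *Sdsl*, which ended without *Xbp1* LKO HFS library 3, and of *Hal* and *Cyp2f2*, which ended without *Xbp1* LKO HFS library 2 or 3. With diet in *Xbp1* fl/fl mice, 20 of 22 pericentral genes were positive (median 0.47) and *Gulo* was called as higher (0.74, SE 0.13, adjusted p = 0.0394 by edgeR), a call that ended without 8 of 11 libraries. For the periportal genes 5 of 22 were positive there (-0.33), and in *Xbp1* LKO mice the diet medians were 0.022 and 0.27 with none called. Medians between genotypes with library totals were 1.19 and 0.92 for pericentral and -1.53 and -0.93 for periportal genes. The part of zonation in the member differences was not tested.

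Of 20 NRF2 target genes, 1 was higher and 1 lower in *Xbp1* LKO mice on chow (*Abcc4* and *Ces1g*) and 2 were higher and 1 lower on the HFS diet (*Gstm3* and *Cbr3* against *Ces1g*), with medians of 0.071 and 0.50. The calls ended without 8 of 11 libraries for *Abcc4*, without *Xbp1* LKO chow library 2 for *Ces1g* on chow and without *Xbp1* fl/fl HFS library 3 for *Cbr3*. Between diets none was called, and the median was -0.46 in *Xbp1* fl/fl mice. Of 17 genes for electron transfer and haem supply to P450 enzymes, 1 was called between genotypes, *Pgrmc2*, lower on chow (-0.81, adjusted p = 0.00881) and on the HFS diet (-0.83, adjusted p = 0.00439) by edgeR's quasi-likelihood test. The chow call of *Pgrmc2* was lost without *Xbp1* LKO chow library 2 (-0.72, adjusted p = 0.107). Of 19 immediate early genes, which can respond to cell isolation, 2 were higher on chow (*Atf3* and *Myc*) and 2 on the HFS diet (*Atf3* and *Klf6*), with medians of 0.28 and -0.14. The calls of *Atf3* on chow and of *Klf6* held with any library left out, while that of *Myc* ended without 8 of 11 libraries and that of *Atf3* on the HFS diet without 5. The latter median became 0.12 with library totals.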
